A study of Homo sapiens with 6 samples.

Results

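The transcripts described here are those of the insulin-like growth factor (IGF) axis: 10 genes picked by name from a table of 32453 features, namely the proteases PAPPA and PAPPA2, the binding proteins IGFBP3, IGFBP4 and IGFBP6, the receptors IGF1R and INSR, the adaptor GRB10 and the receptor substrates IRS1 and IRS2. All 10 were found, each as 1 row. The set was drawn up with the difference between the groups in these same libraries already known, so the members' differences between the groups are given as a description and carry no test. The EV group is 3 libraries of PANC-1 cells labelled as treated with extracellular vesicles (EVs) from cancer-associated fibroblasts (CAFs), the activated fibroblasts of tumour stroma, and the control group is 3 libraries of PANC-1 cells whose treatment label is none. PANC-1 is an established human pancreatic carcinoma line, and the labels name no genotype, passage, vesicle dose or exposure time. The extraction text mentions vesicle treatment for all 6 libraries alike, so the grouping rests on titles and treatment labels. The comparison asks which transcripts differ between cells given CAF vesicles and cells that were not.

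IGFs circulate bound to IGF binding proteins, which hold the ligand away from its receptor. The pappalysins PAPPA and PAPPA2 are secreted metalloproteases that cut some of these binding proteins and so free the ligand, and the stanniocalcins inhibit them. Freed ligand activates the tyrosine kinases IGF1R and INSR, which phosphorylate IRS1 and IRS2 and thereby recruit PI3 kinase, upstream of AKT, FOXO factors and mTORC1. GRB10 binds the activated receptors and dampens their signal, and it is stabilised by mTORC1 as part of a feedback loop. In pancreatic carcinoma the axis is known as a growth and survival pathway that stromal cells can feed with ligand.

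Libraries held 21669757 to 27535620 counts, and a count of 0 allows 3 counts, or 0.11 to 0.138 counts scaled to a common library size (CPM), which covers counting error only. No pair of libraries agreed within sampling noise: the mean squared deviation per gene, which would be 1 for counting noise alone, was 4.94 to 9.65 within the groups and 28.8 to 42.9 between them. Of 7 markers listed for the carcinoma cells, KRT8, KRT18, KRT19 and VIM were abundant, KRT19 and VIM fell, KRT7 averaged 0.0831 CPM in the EV libraries and 0.279 CPM in the controls, and EPCAM and CDH1 had 0 counts in every library. These epithelial genes are commonly detected in PANC-1, so the zeros go against the line label, and whether the cells are PANC-1 was not tested. The 7 summed to 6710 to 7290 CPM in the EV libraries and 7010 to 7620 CPM in the controls. Of 12 fibroblast markers in the table, DCN, LUM, THY1 and POSTN had 0 counts throughout. Only 5 were tested, of which 2 rose (COL1A2 and COL5A1) and 2 fell (COL6A3 and ACTA2). Over all tested genes, 40.9% were called in either direction. The fibroblast sum was 366 to 408 CPM in the EV libraries and 377 to 414 CPM in the controls. The sums were 3.58 to 4.29 CPM in the EV libraries and 4.47 to 5.63 CPM in the controls for 6 immune markers in the table, with PTPRC at 0, and 4.46 to 5.47 CPM and 4.63 to 5.17 CPM for 6 endothelial markers, with KDR and TEK at 0. CD8A made up most of the immune sum, at 2.52 CPM in the EV libraries and 3.91 CPM in the controls. Of 2 tested immune markers it alone was called, as lower (edgeR adjusted p = 0.00611). CDH5 made up most of the endothelial sum, at 4.71 CPM in the EV libraries and 4.23 CPM in the controls. Both acinar and endocrine markers in the table, CPA1 and CHGA, were at 0. The part of these other cell types in the results was not tested.

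The proximal promoters of the members differed in base composition. They are taken from RefSeq (GRCh38.p14), as the 250 bases before each annotated gene start. All 10 members had a window, and GRB10 had 5, because it is annotated with several starts that a count per gene cannot tell apart. The windows shown are those of the 4 members with the lowest fold change in the EV libraries and of INSR, the only tested member with a positive one. Capitals mark motifs found on either strand, where overlapping matches run together. The C/EBP-ATF response element, through which ATF4 and its partners act, was searched as TGATGNAA. The element that FOXO transcription factors recognise was searched as GTAAACA. The GC box bound by SP1 and its relatives was searched as GGGCGG. The TATA box that places the start of transcription was searched as TATAAA.
PAPPA2, chr1:176462925-176463174, plus strand: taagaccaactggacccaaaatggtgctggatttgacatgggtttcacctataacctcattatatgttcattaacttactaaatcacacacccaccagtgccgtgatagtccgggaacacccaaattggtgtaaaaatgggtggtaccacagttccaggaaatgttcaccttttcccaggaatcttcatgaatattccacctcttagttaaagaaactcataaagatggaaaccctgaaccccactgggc
GRB10, chr7:50793454-50793703, minus strand, the start farthest upstream: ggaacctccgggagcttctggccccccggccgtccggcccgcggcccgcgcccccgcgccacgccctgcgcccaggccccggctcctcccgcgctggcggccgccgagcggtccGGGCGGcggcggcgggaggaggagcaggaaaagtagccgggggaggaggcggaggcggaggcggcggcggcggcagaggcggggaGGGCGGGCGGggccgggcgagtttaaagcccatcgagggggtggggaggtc
IRS2, chr13:109786584-109786833, minus strand: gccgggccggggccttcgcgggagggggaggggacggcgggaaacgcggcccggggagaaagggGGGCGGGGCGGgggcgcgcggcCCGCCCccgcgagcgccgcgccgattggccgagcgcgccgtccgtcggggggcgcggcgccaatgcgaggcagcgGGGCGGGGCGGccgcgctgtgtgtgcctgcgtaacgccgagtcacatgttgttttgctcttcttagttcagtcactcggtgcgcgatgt
IGFBP6, chr12:53097417-53097666, plus strand: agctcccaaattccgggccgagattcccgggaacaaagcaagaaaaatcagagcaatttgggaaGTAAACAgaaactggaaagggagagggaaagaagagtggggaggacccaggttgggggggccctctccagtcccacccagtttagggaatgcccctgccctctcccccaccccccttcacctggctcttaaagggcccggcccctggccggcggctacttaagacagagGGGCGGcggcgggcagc
INSR, chr19:7294415-7294664, minus strand: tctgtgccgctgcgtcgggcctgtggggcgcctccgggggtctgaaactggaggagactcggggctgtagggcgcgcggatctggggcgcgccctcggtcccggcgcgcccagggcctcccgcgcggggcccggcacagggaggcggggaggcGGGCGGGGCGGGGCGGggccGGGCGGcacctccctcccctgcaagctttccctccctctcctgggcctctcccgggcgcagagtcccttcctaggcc
The PAPPA2 window held 2 CpG dinucleotides and 42.8% G and C, and none of the 4 motifs. The 5 GRB10 windows differed widely. The one shown held 37 CpG and 81.6% G and C, with 3 GC boxes, and its neighbour held 40 CpG and 3 GC boxes. The other GRB10 windows held 19, 2 and 3 CpG with 67.6%, 48.8% and 30.4% G and C and no GC box, and the last of these held 2 TATA boxes. These begin 167 and 159 bases before the start, on opposite strands. The median over all 35116 windows was 11 CpG and 58% G and C. IRS2 had 42 CpG and 5 GC boxes, INSR had 28 CpG and 4 GC boxes, and IGFBP6 had 9 CpG, 1 GC box and 1 FOXO element that begins 186 bases before the start. Over the 14 member windows, 9 held a GC box, against 42.6% of all windows, and 3 held a TATA box (GRB10, PAPPA and IGFBP4), against 10.7%. In PAPPA and IGFBP4 the TATA box begins 28 and 29 bases before the start. The FOXO element was in 2 member windows (IGFBP6 and PAPPA), against 2.98% of all windows, and the C/EBP-ATF response element in 0, against 3.14%. These are matches of letters in a short window and not measured binding sites.

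PAPPA2 had the lowest fold change of the set. The gene (ENSG00000116183) had 8, 14 and 13 counts in the EV libraries, against 56, 81 and 86 counts in the controls. Scaled, that was 0.296, 0.642 and 0.522 CPM in the EV libraries and 2.40, 2.96 and 3.15 CPM in the controls. Every EV library lay below every control, and the gene was scarce in both groups, 0.487 ± 0.176 CPM against 2.84 ± 0.392 CPM (SD, n = 3 each). The fitted log2 fold change, EV over control, was -2.57 ± 0.27 (SE), or 5.93-fold lower in the EV libraries, and it was the 8th lowest of 14670 tested genes. PAPPA2 also varied most between replicates among the 8 members that could be fitted, with a within-group SD of 0.425 on the log2 scale, against a median of 0.113 over all tested genes. That median covers genes of every count level, while PAPPA2 had only 8 to 14 counts per EV library. How much of its spread was counting noise was not tested. Its paralogue PAPPA (ENSG00000182752), which cuts IGFBP4, had 1, 0 and 0 counts in the EV libraries and 1, 2 and 3 counts in the controls. Each library was at or under the 3 counts that a 0 allows, so no difference was detectable at this depth and no fold is given.

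IGFBP6 was the most abundant of the binding proteins and was lower in the EV libraries. IGFBP6, which prefers IGF2 as its ligand, was at 193, 155 and 162 CPM in the EV libraries and 239, 261 and 227 CPM in the controls. The groups did not overlap, and the log2 fold change was -0.51 ± 0.07 (SE), or 1.43-fold lower. IGFBP4, an inhibitory binding protein and the main substrate of PAPPA, was at 27.6, 25.1 and 25.6 CPM in the EV libraries and 29.2, 29 and 27.8 CPM in the controls. These ranges almost touched, and the log2 fold change was -0.13 ± 0.08 (SE). IGFBP3, the main carrier of circulating IGF and a substrate of PAPPA2, had 7, 6 and 3 counts in the EV libraries and 1, 9 and 7 counts in the controls. It did not pass the count filter, and its groups overlapped.

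**Figure D1:**
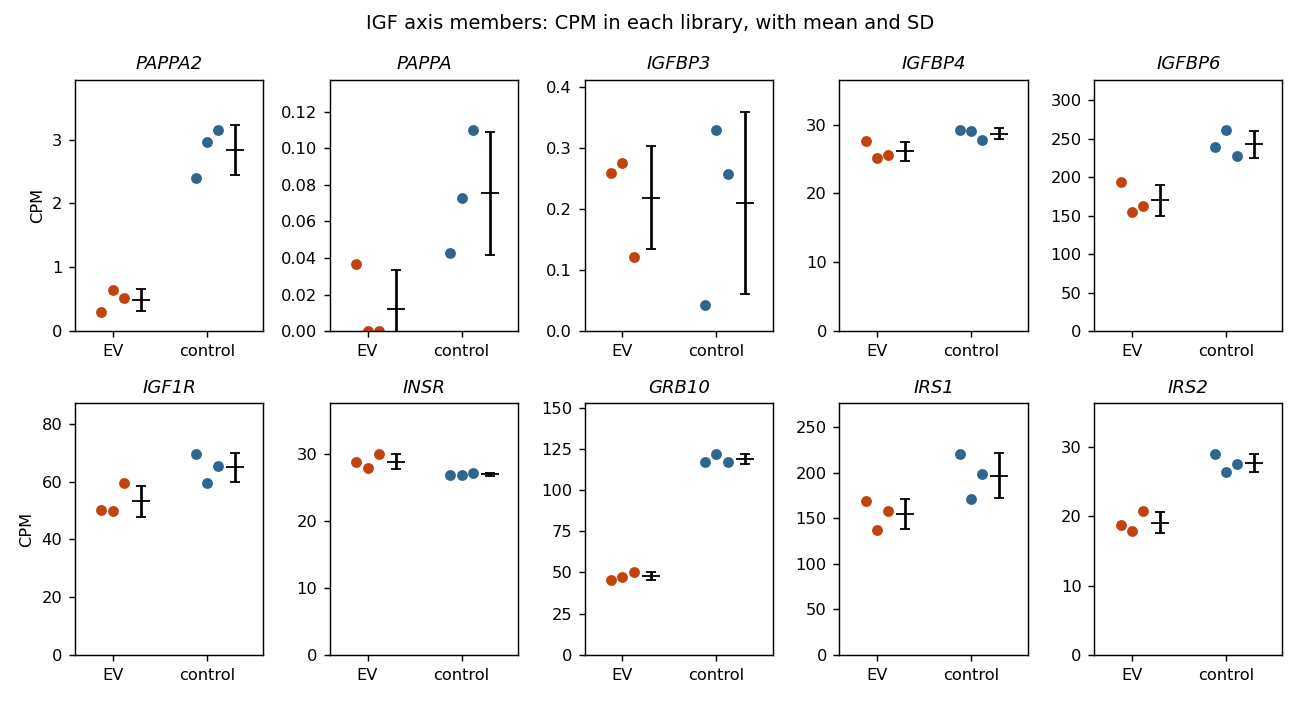
Scaled counts (CPM) of the 10 members in each library (points; 3 EV libraries left, 3 control libraries right), with the mean and SD as a bar beside them; each panel has its own axis from 0. PAPPA2 is at 0.487 CPM against 2.84 CPM and GRB10 at 47.6 CPM against 118 CPM, while INSR and IGFBP4 differ little between the groups.

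Per kilobase of exon, levels of different genes can be compared only roughly, because the length counts annotated exons whether or not these cells use them. On this scale IGFBP6 made up most of the binding protein transcripts in both groups. It took 86.8%, 86.0% and 85.8% of the summed CPM per kb of IGFBP1 to IGFBP6 in the EV libraries, against 88.5%, 89.2% and 88.4% in the controls. IGFBP4 took 8.12% ± 0.468 in the EV libraries and 6.42% ± 0.323 in the controls (SD, n = 3 each). The sum itself was 147 ± 16.5 CPM per kb in the EV libraries and 203 ± 13.6 CPM per kb in the controls. On this scale the order of the members in the EV libraries was IGFBP6 (127 ± 15.0 CPM per kb), IRS1 (15.9 ± 1.71), IGFBP4 (11.9 ± 0.616), GRB10 (7.72 ± 0.39), IGF1R (4.35 ± 0.448), INSR (3.18 ± 0.121) and IRS2 (2.34 ± 0.18), then IGFBP3 (0.0828 ± 0.0322), PAPPA2 (0.0465 ± 0.0168) and PAPPA (0.00112 ± 0.00195). In the controls it was IGFBP6 (180 ± 12.8 CPM per kb), IRS1 (20.3 ± 2.57), GRB10 (19.2 ± 0.452), IGFBP4 (13 ± 0.35), IGF1R (5.31 ± 0.413), IRS2 (3.40 ± 0.166), INSR (2.97 ± 0.0198), PAPPA2 (0.271 ± 0.0374), IGFBP3 (0.0796 ± 0.0565) and PAPPA (0.00687 ± 0.00307). Neighbours in these orders differed by more than the larger SD of the pair, except IRS1 and GRB10 in the controls, which lay within 1 SD of IRS1. IGFBP3 had only 7, 6 and 3 counts in the EV libraries, so its place above PAPPA2 there is uncertain. PAPPA had at most the 3 counts that a 0 allows in every library, so its values per kb carry no weight. GRB10 stood above IGFBP4 in the controls and below it in the EV libraries.

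IGF1R was slightly lower in the EV libraries, and INSR differed little. IGF1R, the receptor for IGF1 and IGF2, was at 50.2, 49.9 and 59.5 CPM in the EV libraries and 69.7, 59.6 and 65.5 CPM in the controls. The highest EV library and the lowest control were practically level, and the log2 fold change was -0.29 ± 0.08 (SE). INSR, the insulin receptor, which also binds IGF2 in one splice form, was at 28.8, 27.9 and 30.1 CPM in the EV libraries and 26.9, 26.9 and 27.2 CPM in the controls. All EV libraries were above all controls, by a small margin, with a log2 fold change of 0.10 ± 0.07 (SE). Per kb, INSR transcripts came to 0.772, 0.751 and 0.679 of the IGF1R level in the EV libraries, against 0.519, 0.608 and 0.559 in the controls. INSR was thus 42.3% ± 1.64 of the receptor pair in the EV libraries and 36.0% ± 1.82 in the controls (SD, n = 3 each).

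GRB10 combined a large difference with little spread. GRB10 (ENSG00000106070) was at 45.3, 47.4 and 50.1 CPM in the EV libraries and 117, 122 and 117 CPM in the controls. The groups were far apart compared with their SD of 2.41 CPM in the EV libraries and 2.79 CPM in the controls. The log2 fold change was -1.32 ± 0.06 (SE), or 2.49-fold lower, the 183rd lowest of the 14670 tested genes. Per kb, GRB10 stood at 1.79, 1.88 and 1.67 times IGF1R in the EV libraries and 3.32, 4.05 and 3.54 times IGF1R in the controls. Against INSR the ratio was 2.43 ± 0.0988 in the EV libraries and 6.47 ± 0.172 in the controls (SD, n = 3 each).

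**Figure D2:**
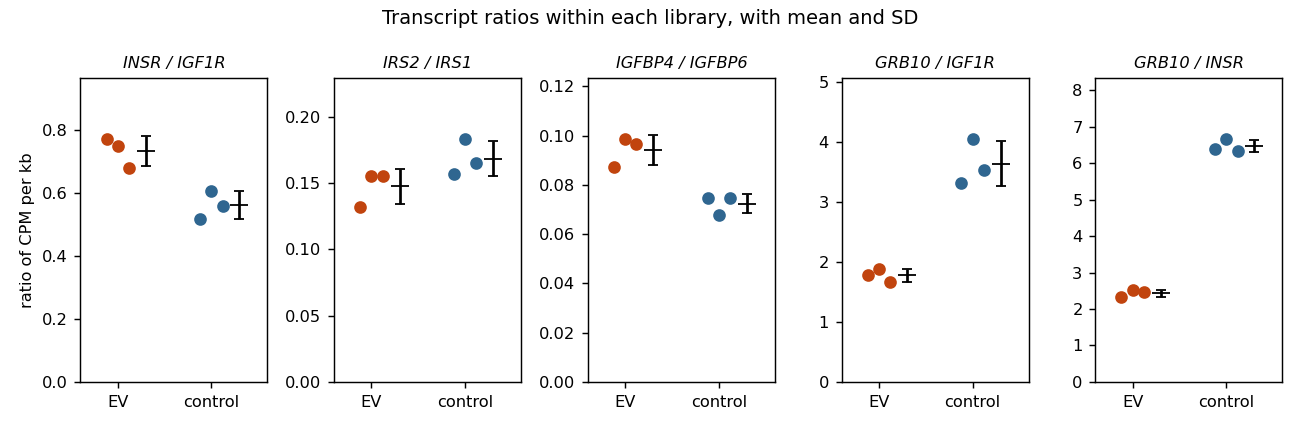
Ratios of CPM per kb between pairs of members within each library (points; EV left, control right), with the mean and SD as a bar beside them and each axis from 0. GRB10 over INSR is 2.43 in the EV libraries and 6.47 in the controls; IRS2 over IRS1 hardly separates the groups (0.148 against 0.168).

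Both receptor substrates were lower in the EV libraries. IRS1, the more abundant docking protein of the pair, was at 169, 137 and 158 CPM in the EV libraries and 221, 171 and 199 CPM in the controls. The highest EV library nearly reached the lowest control, and the log2 fold change was -0.35 ± 0.08 (SE). IRS2, the substrate that beta cells need in mice, was at 18.7, 17.8 and 20.7 CPM in the EV libraries and 29, 26.4 and 27.5 CPM in the controls. Its groups were clearly apart, with a log2 fold change of -0.54 ± 0.08 (SE), or 1.45-fold lower. Per kb the substrates summed to 18.3 ± 1.80 CPM per kb in the EV libraries and 23.7 ± 2.74 CPM per kb in the controls, and IRS2 was 12.8% ± 1.05 of the sum in the EV libraries and 14.4% ± 1.00 in the controls (SD, n = 3 each).

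Of the 10 members, 8 passed the filter on low counts, and PAPPA and IGFBP3 did not. In the fit across all genes, 6 of the 8 had an adjusted p under 0.05 and all 6 were lower (PAPPA2, GRB10, IRS2, IGFBP6, IRS1 and IGF1R), where 20.7% of all tested genes were called lower, 20.2% higher and 40.9% in either direction. The choice of members used this contrast, so nothing is read from that count. The median log2 fold change was -0.43 over the 8 members and -0.01 over all tested genes. In bulk RNA, fewer cells of a type and less RNA per cell cannot be told apart.

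Within the groups, several members were lowest in the same library. EV replicate 2, the library with the fewest counts (21669757), held the lowest EV level of 6 of the 8 tested members. For IGF1R this was a near tie, at -0.0877 against -0.0791 in EV replicate 1 on the log2 scale. How many of all tested genes were lowest in that library was not counted, so nothing is read from the 6. For IRS1, IGF1R and IRS2 the lowest control was control replicate 2, while for INSR it was control replicate 1 and for IGFBP4 and IGFBP6 control replicate 3. IRS1 deviated by -0.17 in EV replicate 2 and by -0.19 in control replicate 2, on the log2 scale. PAPPA2 and GRB10 were lowest in EV replicate 1 and in control replicate 1. For GRB10, control replicates 1 and 3 were practically level, at -0.0208 and -0.0181. For INSR, control replicates 1 and 2 were likewise level, at -0.0066 and -0.0044. INSR had the smallest within-group SD of the members, 0.0392 on the log2 scale. The replicate numbers are not stated to link libraries across the groups.

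**Figure D3:**
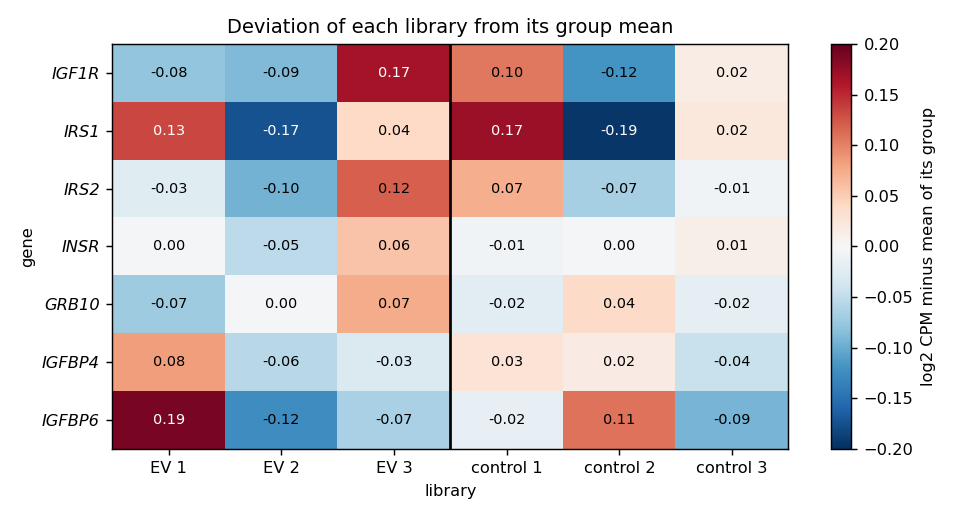
Difference of log2 CPM from the mean of its own group for 7 members (down the page) in the 6 libraries (EV left of the line, control right); red is above and blue below the group mean. IGF1R, IRS1 and IRS2 are lowest in replicate 2 of both groups, while INSR stays within 0.06 of the mean.

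The other genes of the pathway were tested in the same fit. Their lists were drawn up by role, but with earlier results of these data known, so the share called is a description. Of 71 listed genes, 67 were in the table and 58 could be tested. Of these, 13 were called higher and 20 lower, which is 56.9% called, against 40.9% of all tested genes. Their median log2 fold change was -0.07.

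Among ligands, carriers and regulators of the proteases, all 7 tested genes of 16 listed passed, 2 higher and 5 lower. Over all tested genes, 40.9% passed. STC1, a stanniocalcin that inhibits the pappalysins, was at 22.3, 20.5 and 25.0 CPM in the EV libraries and 49.8, 52.6 and 56.6 CPM in the controls (log2 fold change -1.23 ± 0.08 SE, edgeR adjusted p = 1.15e-09). IGFBP1, a stress- and starvation-induced carrier, was at 5.21, 4.35 and 4.94 CPM in the EV libraries and 11.6, 12 and 11 CPM in the controls (-1.25 ± 0.12 SE, edgeR adjusted p = 1.14e-07). Both fell by more than the spread of the replicates. IGFBP2, another carrier, rose to 8.39 ± 1.09 CPM in the EV libraries, against 4.43 ± 0.28 CPM in the controls (0.92 ± 0.13 SE, edgeR adjusted p = 1.9e-05). HTRA1, a secreted serine protease that cuts several binding proteins, rose to 46.6 ± 2.81 CPM in the EV libraries, against 26.4 ± 2.17 CPM in the controls (0.82 ± 0.08 SE, edgeR adjusted p = 1.31e-07). Thus the binding protein genes did not share 1 direction. IGF2R, the scavenger receptor that takes up IGF2, fell to 302 ± 36.9 CPM in the EV libraries, against 396 ± 24.8 CPM in the controls (edgeR adjusted p = 0.000353).

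IGF2, the only ligand gene with values here, had 6, 2 and 3 counts in the EV libraries and 4, 7 and 3 counts in the controls, and it was not tested. IGFBP5, IGFBP7, STC2 and IGF2BP1 had at most 2 counts in any library. IGFALS, which encodes a partner of IGFBP3 in serum, had 4, 6 and 2 counts in the EV libraries and 6, 6 and 5 counts in the controls. IGF1 and INS were listed but had no row in the table, so they have no value here. Of the RNA-binding proteins that bind IGF2 mRNA, IGF2BP2 fell to 249 ± 5.61 CPM in the EV libraries, against 297 ± 5.17 CPM in the controls (-0.25 ± 0.05 SE, edgeR adjusted p = 0.00106). IGF2BP3 was at 210 ± 2.6 CPM in the EV libraries and 235 ± 12.6 CPM in the controls (edgeR adjusted p = 0.0339). Its call was lost without EV replicate 1 (0.075), 2 (0.116) or 3 (0.0898), without control replicate 1 (0.113) or 3 (0.0873), without a count filter (0.0826) and with the replicate number as a block (0.0561), all edgeR adjusted p.

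Of 16 tested adaptors and phosphatases near the receptor, 3 rose and 6 fell, a share of 56.2%, against 40.9% of all tested genes. GRB7, an adaptor of the GRB10 family, fell to 6.93 ± 0.885 CPM in the EV libraries, against 14.2 ± 0.881 CPM in the controls (-1.03 ± 0.11 SE, edgeR adjusted p = 8.93e-07), and GRB14, the other relative, had 0 counts in all 6 libraries. GAB2, a docking protein, fell by 0.67 ± 0.11 on the log2 scale, and NEDD4, a ubiquitin ligase that binds GRB10, fell by 0.32 ± 0.07. SH2B1, an adaptor that enhances the insulin signal, fell by 0.23 ± 0.07, a call lost without EV replicate 2 (edgeR adjusted p = 0.0702). GRB2, which links IRS proteins to RAS, rose by 0.31 ± 0.05, and the adaptor SH2B2 by 0.58 ± 0.10. PTPN1, the phosphatase that switches the receptors off, rose by 0.52 ± 0.15, but rested in part on 1 library: it was at 92.0, 88.6 and 97.2 CPM in the EV libraries and 78.9, 74.6 and 40.7 CPM in the controls. Without control replicate 3 its log2 fold change was 0.27 (edgeR adjusted p = 0.00335), and DESeq2 did not call it (adjusted p = 0.157). GIGYF1 and GIGYF2, partners of GRB10, did not pass in edgeR (adjusted p = 0.0515 and 0.717), while GIGYF1 passed with the 1 CPM filter (0.0358) and without control replicate 2 (0.0385).

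Of 20 tested genes of PI3 kinase, AKT and FOXO, 4 rose and 5 fell, a share of 45.0%, close to the 40.9% of all tested genes. FOXO3, a transcription factor that AKT holds out of the nucleus, fell to 17.9 ± 0.899 CPM in the EV libraries, against 29.4 ± 2.14 CPM in the controls (-0.72 ± 0.08 SE, edgeR adjusted p = 1.88e-06). GSK3B, a kinase that AKT inhibits (-0.33 ± 0.06 SE), and INPPL1, a lipid phosphatase (-0.25 ± 0.06), also fell. PIK3R3, a regulatory subunit of PI3 kinase, rose to 32.9 ± 2.09 CPM in the EV libraries, against 20.1 ± 2.13 CPM in the controls (0.71 ± 0.09 SE, edgeR adjusted p = 2.97e-06). MAPKAP1, the SIN1 subunit of mTORC2 (0.55 ± 0.09), PHLPP2, an AKT phosphatase (0.32 ± 0.07), and PIK3CB, a catalytic subunit (0.31 ± 0.07), rose too. The MAPKAP1 controls were uneven, at 94.6, 83.5 and 66.3 CPM. Its log2 fold change was 0.42 to 0.67 when a library was left out, and it kept its call.

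In the mTORC1 branch, 4 of 15 tested genes were called higher and 4 lower, a share of 53.3%. Over all tested genes, 20.2% were called higher and 20.7% lower. ULK1, the kinase that starts autophagy, fell to 45.2 ± 3.81 CPM in the EV libraries, against 68.2 ± 4.69 CPM in the controls (-0.59 ± 0.07 SE, edgeR adjusted p = 3.8e-06). The translation repressor gene EIF4EBP1 fell (-0.42 ± 0.07 SE), while its relative EIF4EBP2 rose (0.52 ± 0.07), as did EIF4E, the cap-binding protein they hold (0.33 ± 0.07). TBC1D7, a subunit of the TSC complex, rose by 0.66 ± 0.09, and RPS6KB1, the S6 kinase, rose by 0.30 ± 0.07. TSC2 and MTOR were at -0.22 ± 0.06 and -0.20 ± 0.07 on the log2 scale. The TSC2 call was lost without EV replicate 2 (edgeR adjusted p = 0.0511). The MTOR call was lost without EV replicate 1 (0.143) or 2 (0.0845) and without control replicate 1, where the log2 fold change was -0.13 (edgeR adjusted p = 0.144).

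**Figure D4:**
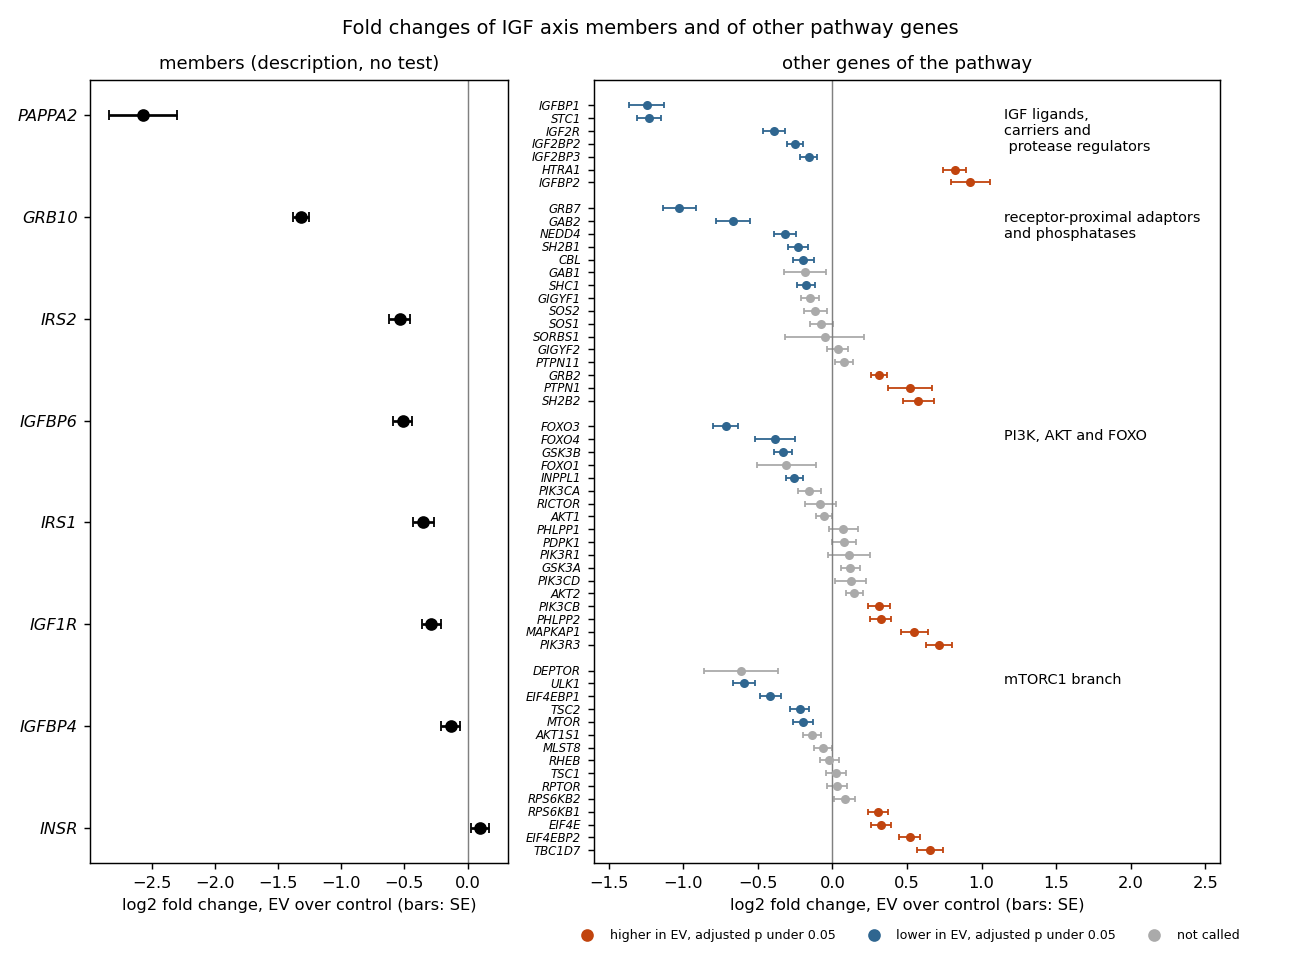
Fitted log2 fold change, EV over control, with its SE for the 8 members that passed the count filter (left, a description without a test) and for 56 of the 58 tested genes of 4 pathway lists (right; colour gives the call at an adjusted p under 0.05). PAPPA2 (-2.57) and GRB10 (-1.32) lie farthest left among members; IGFBP1, STC1 and GRB7 are the lowest, and IGFBP2 and HTRA1 the highest, of the other genes.

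The genes whose levels tracked PAPPA2 and GRB10 most closely were looked up among 12858 tested genes that averaged 1 CPM or more. For PAPPA2 they were ZNF263 (Pearson r = 0.9992 over the 6 libraries), PPFIBP1 (0.9987) and ZNF843 (0.995). For GRB10 they were ETV5 (0.9992), ZZZ3 (0.999) and RPS6KA2 (0.9989). A correlation of 0.99 or more was reached by 21 genes for PAPPA2 and by 126 genes for GRB10. The 6 points share the 2 groups, so any gene with a steady difference between them scores high, also where that difference is small: ZNF263 and PPFIBP1 had log2 fold changes of -0.16 and -0.32, and RPS6KA2 had -1.64.

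The authors' deposited table gives fold changes as control over EV. There PAPPA2 has a log2 fold change of 2.55 and GRB10 one of 1.30, both marked up in the authors' deposited table, and both have the lower mean in the EV group. None of the other 8 members is marked in the authors' deposited table. A missing mark there does not mean that no difference was seen. IGFBP2 is unmarked too, at a log2 fold change of -0.94, though edgeR called it here (adjusted p = 1.9e-05). The authors' marks and the calls made here therefore cannot be set side by side. The deposited table rests on the same libraries and is no independent measurement.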

How the data were processed

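The authors deposited raw counts per gene for 6 poly(A) libraries, and a table of their own comparison with group means and fold changes on the log2 scale, p-values and q-values. TopHat, RSEM and hg19 are named in the submitters' processing notes, with no step or version. The annotation and whether counting used the strand that the kit marks per the labels' protocols are not stated in the sources used here. Assembled loci without a gene name (375, 0.099% to 0.134% of a library's counts) were left out, leaving 32078 genes.

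From the counts, 14670 genes that passed filterByExpr were tested with edgeR 4.0.16 (R 4.3.3): TMM factors, quasi-likelihood test, Benjamini-Hochberg adjustment over all tested genes, called at an adjusted p under 0.05. CPM use the TMM factors; the SE is the log2 coefficient over the square root of F. Levels per kb use the union of GENCODE v29 exons (GRCh38), matched for 99.26% of tested genes. The test was checked on simulated counts. Members and lists were chosen with earlier results of these data known. Named are all members and all STC, IGFBP and IGF2BP genes with values. Also named are up to 4 called genes per list and direction by lowest adjusted p, and the 3 genes most like PAPPA2 and GRB10. GIGYF1, GIGYF2, GRB14, IGF2, IGFALS, DEPTOR and the markers were named after their values were seen. Some genes that enter the counts are not reported here by name. No label says that replicates were separate cultures, so p-values reflect only how far these libraries differ, which may be technical variation. Alternatives were other scalings and filters, DESeq2 1.42.0, limma-voom (limma 3.58.1), a replicate block and leaving out each library.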

Additional observations from a re-analysis of the deposited data

How the results depend on the processing

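Across 13 alternatives, 6 of which left out a library, the number of genes called stayed between 4756 and 6009 (6001 as reported), with 4756 to 5612 when a library was left out. Pathway genes called higher numbered 13 to 14 and those called lower 14 to 21, the 14 arising without EV replicate 2. The log2 fold changes of the 8 tested members kept their sign and moved by less than the SD within groups: PAPPA2 ranged from -2.80 to -2.28, GRB10 from -1.35 to -1.27, IRS2 from -0.59 to -0.49 and INSR from 0.08 to 0.12. Of 33 called pathway genes, 25 kept their call in every alternative and 8 lost it in at least 1, while 5 of the 25 not called were called in at least 1; 0 reversed. With the replicate block, 5743 genes were called, 13 pathway genes higher and 20 lower, and IGF2BP3 lost its call while DEPTOR gained one (adjusted p = 0.0255). Deviations of same-numbered libraries correlated at -0.056, -0.026 and -0.064, and no EV library correlated best with the control of its own number. With 3 libraries per group, such values cannot tell whether same-numbered libraries were handled together. Depth limits PAPPA, IGFBP3 and IGF2, which were too scarce to test.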
